A study of Mus musculus with 6 samples.

Results

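Collagens are the structural proteins of the extracellular matrix, and each collagen molecule is a triple helix of 3 chains that are encoded by separate genes. The chains were taken as every gene of the table whose symbol is Col, a type number, the letter a and a chain number, which gave 43 chains of 27 collagen types among 17352 genes. They were grouped by type number into 11 fibrillar chains, 5 basement membrane chains, all of type IV, and 27 other chains. Transcripts were measured by RNA sequencing of whole subcutaneous tumours of Panc02, a cell line of pancreatic cancer in the mouse. All 6 tumours were collected 4 weeks after implantation. In 3 of them (deficient 3, 4 and 5) the host carried a deletion of Anxa1 restricted to myeloid cells (Anxa1ΔMɸ), and in the other 3 (wild type 2, 3 and 5) the host was an Anxa1 flox/flox animal with the gene intact. Anxa1 encodes annexin A1, a phospholipid-binding protein abundant in phagocytes.

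The labels also carry the letters HFD in every sample name and do not define them. The sources used here do not give the Cre driver, strain, sex or age of the hosts. The implanted cells were of the same line in both groups and have their own Anxa1. Anxa1 itself was at 249.9, 330.2 and 290.5 FPKM (fragments per kilobase of transcript, scaled to library depth) in deficient 3, 4 and 5, against 341.8, 354.4 and 394.2 FPKM in wild type 2, 3 and 5. Every deficient tumour was below every wild-type tumour, and the difference did not pass the test (log2 fold change -0.33, SE 0.12, limma adjusted p = 0.268). The step size of low values implied 37500000 to 41100000 fragments per library. The tissue label was checked against 5 epithelial markers, which summed to between 448.5 and 570.9 FPKM in deficient tumours and between 427.6 and 528.4 FPKM in wild-type tumours, most of it from the keratins Krt8 and Krt18. All 5 had a fold change above 0 with 0 called (median log2 fold change 0.62, with 0.07 for Krt8 and 0.06 for Krt18). Epcam and Cdh1, 2 of the 5, were higher in every deficient tumour than in any wild-type tumour. The same held for 11.8% of all genes tested. Nothing in the labels says how the libraries were taken from the animals, so p-values measure the spread between these samples.

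Fibrillar collagens such as types I and III assemble into the cross-banded fibres that give tissue its tensile strength, and in solid tumours they are made mainly by fibroblasts. Type IV collagen forms a sheet-like network in basement membranes, the thin matrix under epithelia and around blood vessels, and its chains are encoded by gene pairs that lie head to head. The other types are associated with fibril surfaces, form beaded filaments or short networks, span the cell membrane, or carry sugar chains in the zone beside basement membranes.

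Of the 43 chains, 26 passed the filter of a mean of at least 0.5 FPKM and were tested, namely 9 fibrillar, 3 basement membrane and 14 other chains. Among these 26, 0 chains were called higher and 1 chain, Col4a5, was called lower in deficient tumours (limma on log2(FPKM + 1), Benjamini-Hochberg adjusted p under 0.05). Over all 12257 genes tested, 0.979% were called higher and 0.228% lower. At an unadjusted p under 0.05, 2 chains were higher and 5 lower, against 9.86% of all genes higher and 5.25% lower. The fold change was below 0 for 21 of the 26 chains and above 0 for 5, with a median log2 fold change of -0.38, where all genes tested had a median of 0.02. By class the median was -0.54 over fibrillar, -0.11 over basement membrane and -0.34 over other chains. In whole tissue, fewer cells of a type and less RNA per cell cannot be told apart.

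**Figure D1:**
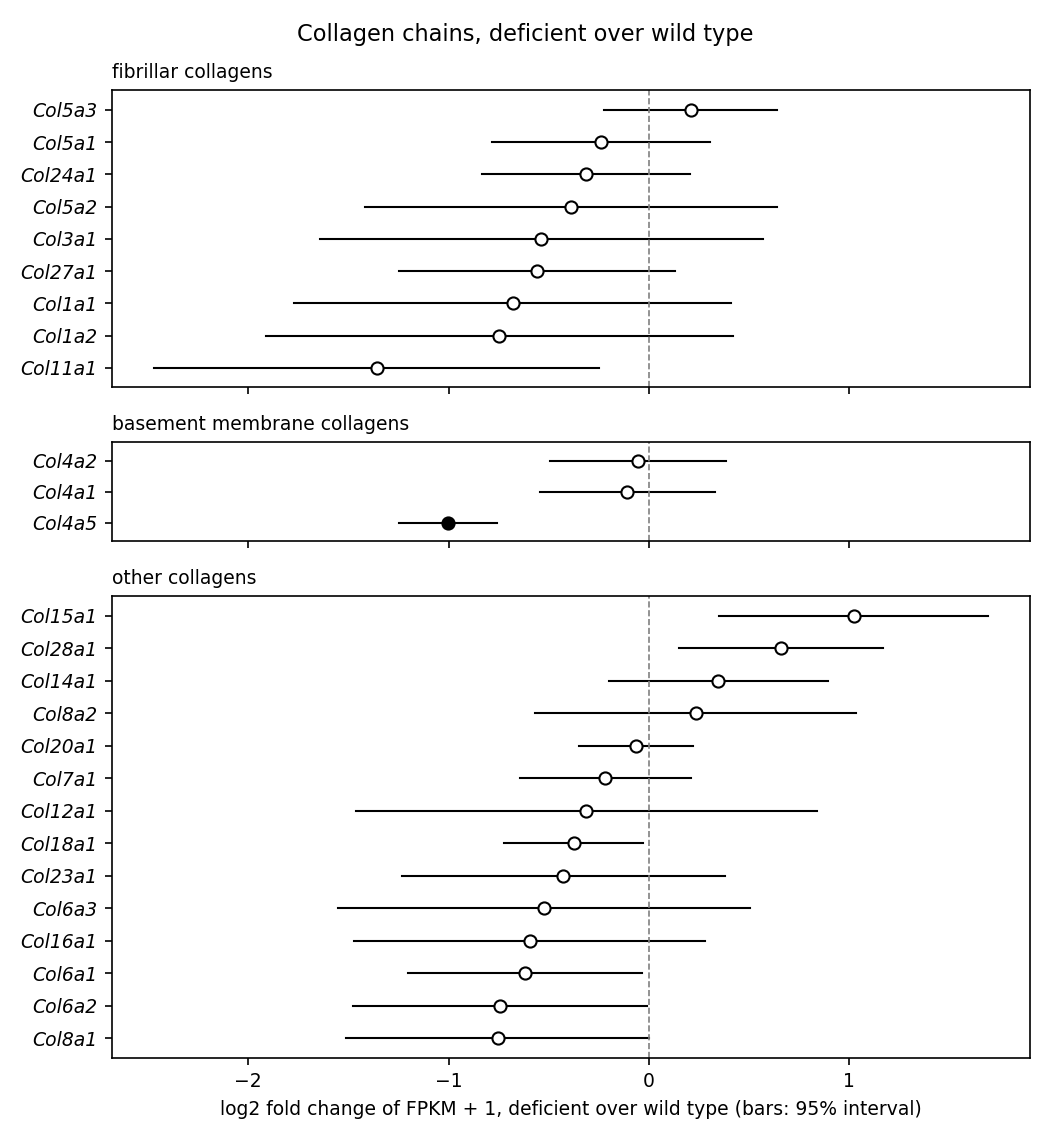
Log2 fold change (deficient over wild type, on log2(FPKM + 1)) of the 26 tested collagen chains, grouped by class, with 95% intervals from limma. The interval of Col4a5 lies farthest from 0 relative to its width, and 21 of the 26 points lie below 0.

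The 1 call lay within type IV. Col4a5, whose chain forms the networks of selected basement membranes and is mutated in hereditary kidney disease in humans, fell in deficient tumours. Its level was 0.774, 0.922 and 0.770 FPKM in deficient 3, 4 and 5, against 2.58, 2.49 and 2.88 FPKM in wild type 2, 3 and 5. The groups did not overlap, and the tumours of each group lay close together. The means were 0.822 ± 0.0865 FPKM in deficient tumours and 2.65 ± 0.204 FPKM in wild-type tumours (SD, n = 3 each). On log2(FPKM + 1) the fold change was -1.002 (SE 0.11, 95% interval -1.25 to -0.76, limma adjusted p = 0.0125), and with a pseudocount of 0.1 it was -1.58. The levels correspond to 190, 248 and 190 fragments in deficient 3, 4 and 5 and to 668, 634 and 734 fragments in wild type 2, 3 and 5. The call was lost without deficient 3 (limma adjusted p = 0.0580) and without wild type 3 (limma adjusted p = 0.0633), with log2 fold changes of -0.98 and -1.03.

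Col4a5 lies on the X chromosome, and genes of the Y chromosome separated the same groups. Ddx3y, a Y-linked RNA helicase, was at 0.0441, 0.126 and 0 FPKM in deficient 3, 4 and 5, against 3.13, 5.26 and 6.79 FPKM in wild type 2, 3 and 5. All 4 Y-linked genes listed (Ddx3y, Eif2s3y, Kdm5d and Uty) were lower in every deficient tumour than in any wild-type tumour. Whatever sets the Y-linked genes apart and the Anxa1 genotype of the host cannot be told apart in these 6 tumours, for Col4a5 or for any other chain.

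The window around the RefSeq start of each type IV gene that the results turn on is shown here (GRCm38.p6, 250 bases before the start to 50 bases after it, 5′ to 3′ on the gene's strand). Col4a5 and Col4a6 lie head to head, and so do Col4a1 and Col4a2. Capitals mark matches on either strand to the TATA box (spelled TATAAA), the CCAAT box (spelled by its name) and the GC box (spelled GGGCGG). The windows are chrX:141475169-141475468 on the + strand for Col4a5, chrX:141474027-141474326 on the - strand for Col4a6, chr8:11312777-11313076 on the - strand for Col4a1 and chr8:11312555-11312854 on the + strand for Col4a2.
Col4a5: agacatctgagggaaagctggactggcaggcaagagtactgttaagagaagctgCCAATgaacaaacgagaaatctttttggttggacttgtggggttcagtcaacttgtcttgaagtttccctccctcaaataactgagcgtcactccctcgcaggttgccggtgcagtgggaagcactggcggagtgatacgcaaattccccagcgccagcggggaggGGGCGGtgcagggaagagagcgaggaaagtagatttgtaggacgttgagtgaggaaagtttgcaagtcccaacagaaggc
Col4a6: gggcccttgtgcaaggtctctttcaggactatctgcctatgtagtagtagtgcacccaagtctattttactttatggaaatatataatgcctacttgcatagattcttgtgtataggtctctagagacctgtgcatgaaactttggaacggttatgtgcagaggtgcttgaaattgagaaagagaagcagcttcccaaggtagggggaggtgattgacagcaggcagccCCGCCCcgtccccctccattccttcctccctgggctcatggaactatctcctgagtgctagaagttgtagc
Col4a1: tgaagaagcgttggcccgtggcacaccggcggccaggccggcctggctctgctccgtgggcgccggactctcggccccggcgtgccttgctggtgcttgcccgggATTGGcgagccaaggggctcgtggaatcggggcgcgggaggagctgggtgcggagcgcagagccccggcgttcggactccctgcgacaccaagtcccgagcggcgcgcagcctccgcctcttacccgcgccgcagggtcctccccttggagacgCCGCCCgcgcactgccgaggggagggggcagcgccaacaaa
Col4a2: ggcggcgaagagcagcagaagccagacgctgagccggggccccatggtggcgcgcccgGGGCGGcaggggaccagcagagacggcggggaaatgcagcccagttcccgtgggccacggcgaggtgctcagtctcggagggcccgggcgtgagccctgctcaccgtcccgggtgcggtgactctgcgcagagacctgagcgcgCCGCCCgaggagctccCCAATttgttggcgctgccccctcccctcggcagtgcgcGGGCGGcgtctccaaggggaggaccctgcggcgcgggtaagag
The starts of Col4a5 and Col4a6 are 1343 bases apart and their windows do not overlap. The starts of Col4a1 and Col4a2 are 21 bases apart and their windows share 78 bases. By these positions and strands each of these 2 starts lies inside the other gene, so no DNA separates this pair. The bases before each start in their windows are thus part of the partner gene. The Col4a5 window holds 1 CCAAT box and 1 GC box, and the Col4a6 window holds 1 GC box. The Col4a1 window holds 1 of each of these and the Col4a2 window 1 CCAAT box and 3 GC boxes. The windows of the first pair have a GC content of 52.7% and 48.3%, against 74% and 73.7% for Col4a1 and Col4a2. A window was listed for 35 of the 43 chains. A GC box was found in 22 of these 35 windows (62.9%) and in 35.9% of the windows of 27025 genes, a CCAAT box in 34.3% and 37.9%, and a TATA box in 14.3% and 14.2%.

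Col4a6, a partner of Col4a5 in type IV networks, was near the limit of detection. It was listed at 0.0552, 0.0720 and 0.0471 FPKM in deficient 3, 4 and 5, against 0, 0 and 0.0228 FPKM in wild type 2, 3 and 5. These values are steps of as few as 7, 10 and 6 fragments in the deficient tumours and 0, 0 and 3 in the wild-type tumours. The order of the groups was thus opposite to that of its neighbour. Col4a6 did not pass the filter, and with no filter the difference did not pass the test (limma adjusted p = 0.230). Among all genes below the filter, 8.5% did not overlap between groups and were higher in deficient tumours, and 3.95% were lower.

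Col4a1 and Col4a2, which make up the common type IV network of most basement membranes, were far more abundant per kilobase than Col4a5. Col4a1 was at 85.2, 74.4 and 126.0 FPKM in deficient 3, 4 and 5, against 106.7, 88.5 and 106.0 FPKM in wild type 2, 3 and 5. Col4a2 was at 52.1, 43.3 and 75.3 FPKM in deficient 3, 4 and 5, against 59.4, 51.8 and 62.0 FPKM in wild type 2, 3 and 5. In both genes deficient 5 was the highest tumour and deficient 4 the lowest, and the groups overlapped. The log2 fold change was -0.11 for Col4a1 (95% interval -0.54 to 0.33, limma adjusted p = 0.838) and -0.05 for Col4a2 (95% interval -0.49 to 0.38, limma adjusted p = 0.923), and both signs turned without deficient 4 (0.05 and 0.12). Reads at the start of these genes could belong to either one if strand was not used in counting, which the sources used here do not state.

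The ratio of Col4a1 to Col4a2 was 1.64, 1.72 and 1.67 in deficient 3, 4 and 5, against 1.80, 1.71 and 1.71 in wild type 2, 3 and 5. It was thus nearly the same in every tumour (log2 difference -0.05, exact permutation p = 0.3, two-sided). The ratio of Col4a5 to Col4a1 was 0.00909, 0.0124 and 0.00611 in deficient 3, 4 and 5, against 0.0242, 0.0281 and 0.0272 in wild type 2, 3 and 5. The groups did not overlap (log2 difference -1.58, exact permutation p = 0.1, two-sided, the smallest p that 3 against 3 allows, and 0.4 after Benjamini-Hochberg adjustment over the 8 ratios computed). The fifth type IV chain listed, Col4a4, is known from the kidney filter and was not tested. It ranged from 0.123 to 0.222 FPKM in deficient tumours and from 0.114 to 0.191 FPKM in wild-type tumours. Col4a3 was not among the chains listed. Endothelial markers, whose cells lie on type IV networks, summed over 8 genes to between 58.2 and 99.7 FPKM in deficient tumours and between 59.4 and 80.9 FPKM in wild-type tumours. Deficient 5 was highest and deficient 4 lowest there too, and the part of these cells in the type IV levels was not tested.

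**Figure D2:**
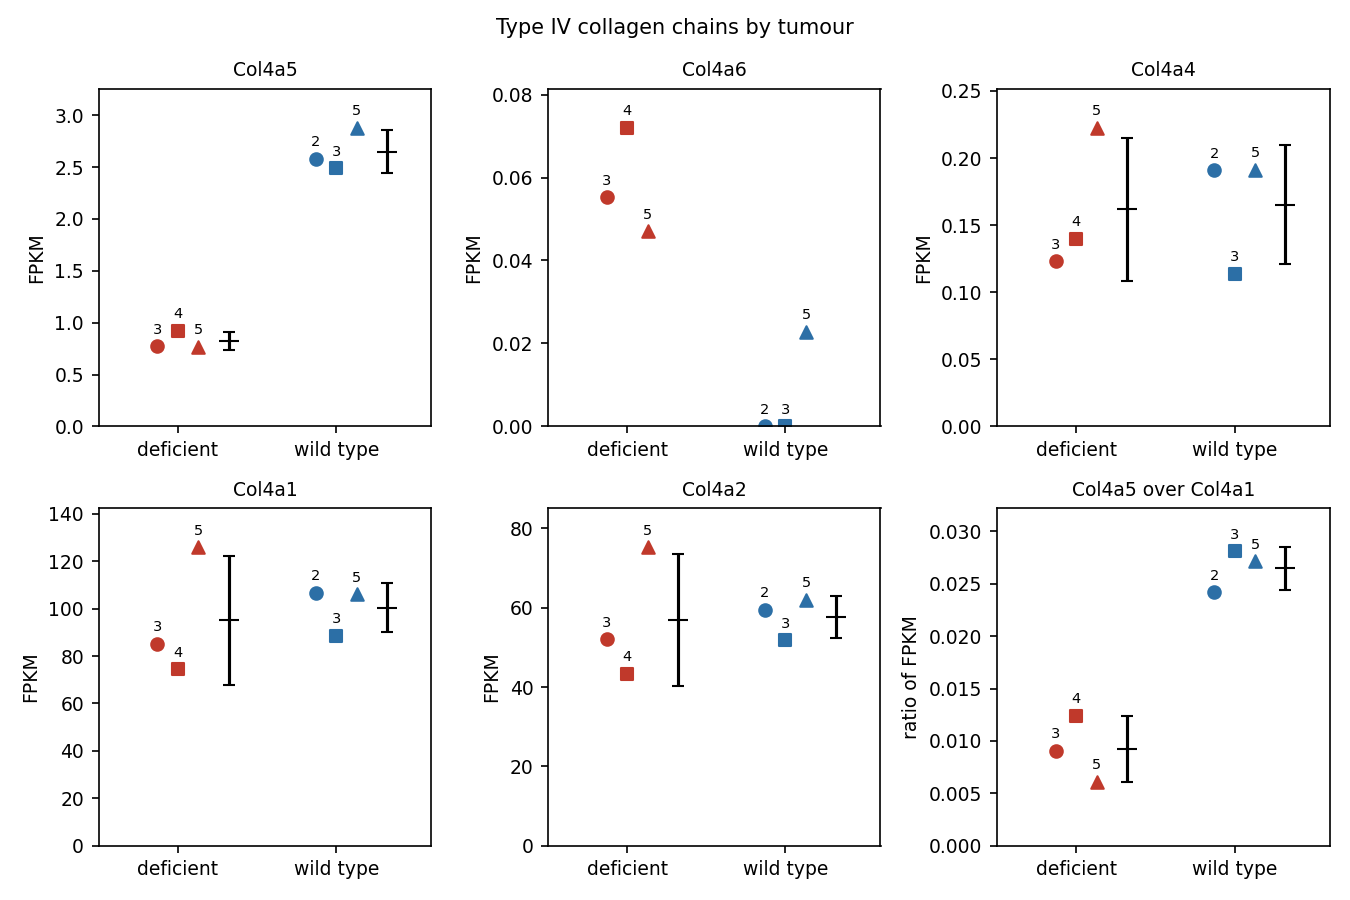
FPKM of type IV collagen chains and their ratios in each tumour (deficient at the left, wild type at the right, numbers are the tumour numbers, bars are the mean ± SD of 3 tumours where no tumour is at 0). Col4a5 is separated between the groups, while Col4a1 and Col4a2 overlap and share deficient 5 as the highest tumour.

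Among the 9 fibrillar chains tested the fold change was below 0 for 8, and 0 of the 9 passed the test in either direction (1 at an unadjusted p under 0.05). Col1a1 and Col1a2, the chains of type I collagen, and Col3a1, the chain of type III collagen, were the most abundant collagens. Col1a1 was at 398.0, 600.5 and 297.8 FPKM in deficient 3, 4 and 5, against 307.1, 835.9 and 1138 FPKM in wild type 2, 3 and 5. Col3a1 was at 419.6, 531.8 and 416.0 FPKM in deficient 3, 4 and 5, against 283.5, 782.2 and 1278 FPKM in wild type 2, 3 and 5. In both genes wild type 5 and wild type 3 lay above every deficient tumour, and wild type 2 lay among or below them. The log2 fold change was -0.68 for Col1a1 (SE 0.47, limma adjusted p = 0.539), -0.75 for Col1a2 (SE 0.50, limma adjusted p = 0.528) and -0.54 for Col3a1 (SE 0.48, limma adjusted p = 0.643). These sizes rest on 2 wild-type tumours. Without wild type 2 the log2 fold changes were -1.23, -1.35 and -1.14 in that gene order, and without wild type 5 they were -0.29, -0.32 and -0.057.

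The balance of the type I chains varied little between tumours. The ratio of Col1a1 to Col1a2 was 0.984, 1.07 and 1.09 in deficient 3, 4 and 5, against 1.06, 0.984 and 0.949 in wild type 2, 3 and 5, with overlapping groups (exact permutation p = 0.3, two-sided). The 3 chains of type V, which is built into type I fibrils and sets their width, all had overlapping groups. Col5a1 ranged from 60.7 to 87.3 FPKM in deficient tumours and from 58.6 to 110.8 FPKM in wild-type tumours (log2 fold change -0.24, limma adjusted p = 0.677). Col5a2 ranged from 40.1 to 70.9 FPKM in deficient tumours and from 33.9 to 129.4 FPKM in wild-type tumours (log2 fold change -0.39, limma adjusted p = 0.731). Col5a3 was the 1 fibrillar chain with a fold change above 0, at 6.72 to 8.28 FPKM in deficient tumours and 4.50 to 8.23 FPKM in wild-type tumours (log2 fold change 0.21, limma adjusted p = 0.644), and without wild type 2 its fold change was 0.014. The ratio of Col5a1 to Col5a2 was 1.20, 1.23 and 1.51 in deficient 3, 4 and 5, against 1.73, 1.10 and 0.856 in wild type 2, 3 and 5, with overlapping groups (exact permutation p = 0.8, two-sided).

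Col11a1, a fibrillar chain of cartilage that also marks fibroblasts of carcinomas, had the lowest fold change of the 26 tested chains with all 6 tumours included. It was at 2.52, 4.33 and 0.527 FPKM in deficient 3, 4 and 5, against 4.67, 5.47 and 12.2 FPKM in wild type 2, 3 and 5. The groups did not overlap, although deficient 4 and wild type 2 were close, and wild type 5 stood well above the rest. The means were 2.46 ± 1.90 FPKM in deficient tumours and 7.45 ± 4.13 FPKM in wild-type tumours (SD, n = 3 each), and the difference did not pass the test (log2 fold change -1.36, SE 0.48, limma adjusted p = 0.248). Without deficient 5 its log2 fold change was -0.86, which is closer to 0 than that of Col4a5 in the same fit (-0.98). Groups did not overlap, in the lower direction, for 2 of the 26 chains (Col4a5 and Col11a1) and for 8.31% of all genes. The partner Col11a2 and the cartilage chain Col2a1 stayed under the filter. Cartilage and bone markers summed to between 17.2 and 21.1 FPKM in deficient tumours and between 23.2 and 32.1 FPKM in wild-type tumours. Most of this came from Sox9 and Runx2, and 8 of the 12 genes were under 1 FPKM in every tumour. The part of cartilage and bone cells in the Col11a1 values was not tested. Col24a1 and Col27a1, 2 minor fibrillar chains, had log2 fold changes of -0.31 and -0.56 (limma adjusted p = 0.552 and 0.431).

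**Figure D3:**
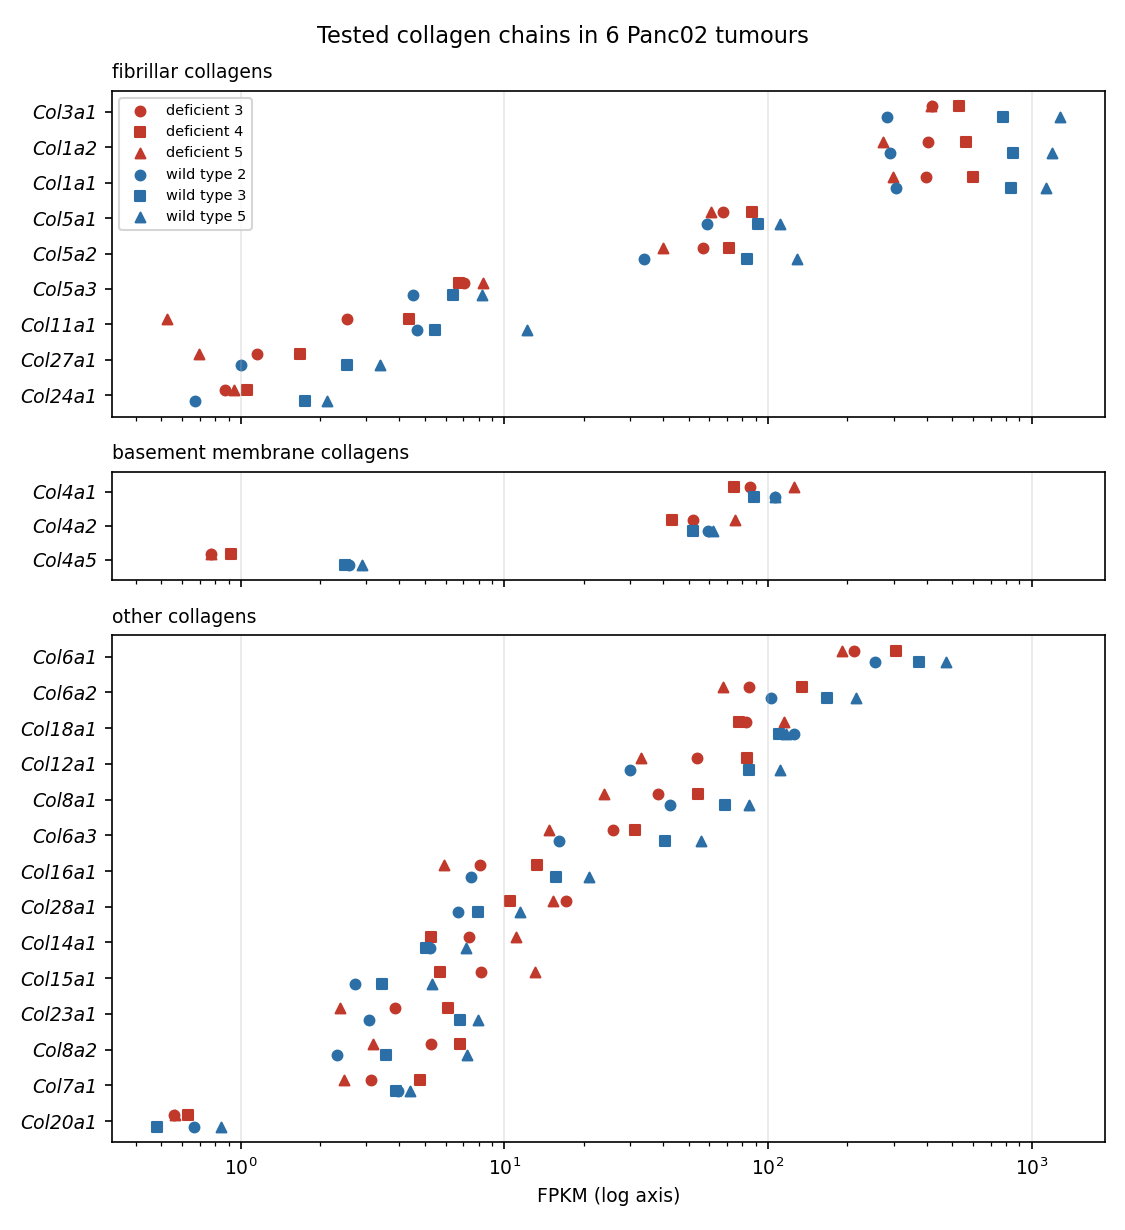
FPKM of the tested collagen chains on a log axis, 1 point per tumour (deficient in red, wild type in blue), grouped by class. Fibrillar chains spread widely among wild-type tumours, with wild type 5 highest in 8 of 9.

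Summed over the 11 fibrillar chains, the level was 1358, 1868 and 1099 FPKM in deficient 3, 4 and 5, against 983.7, 2659 and 3882 FPKM in wild type 2, 3 and 5. Wild type 2 was thus the lowest of the 6 tumours and the other two wild-type tumours the highest. The log2 difference was -0.62 (exact permutation p = 0.4, two-sided, where 0.1 is the smallest p possible). It was -1.19 without wild type 2 and -0.20 without wild type 5. The 5 basement membrane chains summed to 138.2, 118.8 and 202.3 FPKM in deficient 3, 4 and 5, against 168.9, 143.0 and 171.1 FPKM in wild type 2, 3 and 5 (log2 difference -0.10, exact permutation p = 0.6, two-sided). The other chains summed to 553.3, 743.5 and 500.1 FPKM in deficient 3, 4 and 5, against 604.3, 892.3 and 1126 FPKM in wild type 2, 3 and 5 (log2 difference -0.52, exact permutation p = 0.2, two-sided). In all 3 sums the groups overlapped.

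Of the 26 tested chains, wild type 5 was the highest tumour for 18, deficient 5 the lowest for 12 and wild type 2 the lowest for 9. Wild type 2 lay below every deficient tumour for 10 chains, 5 of them fibrillar. All collagen chains together made up 0.468%, 0.585% and 0.392% of summed FPKM in deficient 3, 4 and 5, against 0.390%, 0.841% and 1.22% in wild type 2, 3 and 5. Fibroblast markers, like the fibrillar sum, had their highest level in wild type 5. Their 12 genes summed to between 2144 and 2690 FPKM in deficient tumours and between 2475 and 3991 FPKM in wild-type tumours, and 9 of the 12 had a fold change below 0 with 0 called. Wild type 2 was lowest in the fibrillar sum but lay above deficient 3 (2411 FPKM) and deficient 5 in the fibroblast marker sum. Much of that sum was Fn1, at 1300 FPKM in wild type 2, against 1230 FPKM in deficient 3 and 1187 FPKM in deficient 5. Wild type 2 was the lowest tumour for Thy1, Postn, Dpt, Pi16, Fbln1 and Mfap5, and not for the other fibroblast markers. The part of fibroblasts in the collagen levels was not tested.

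**Figure D4:**
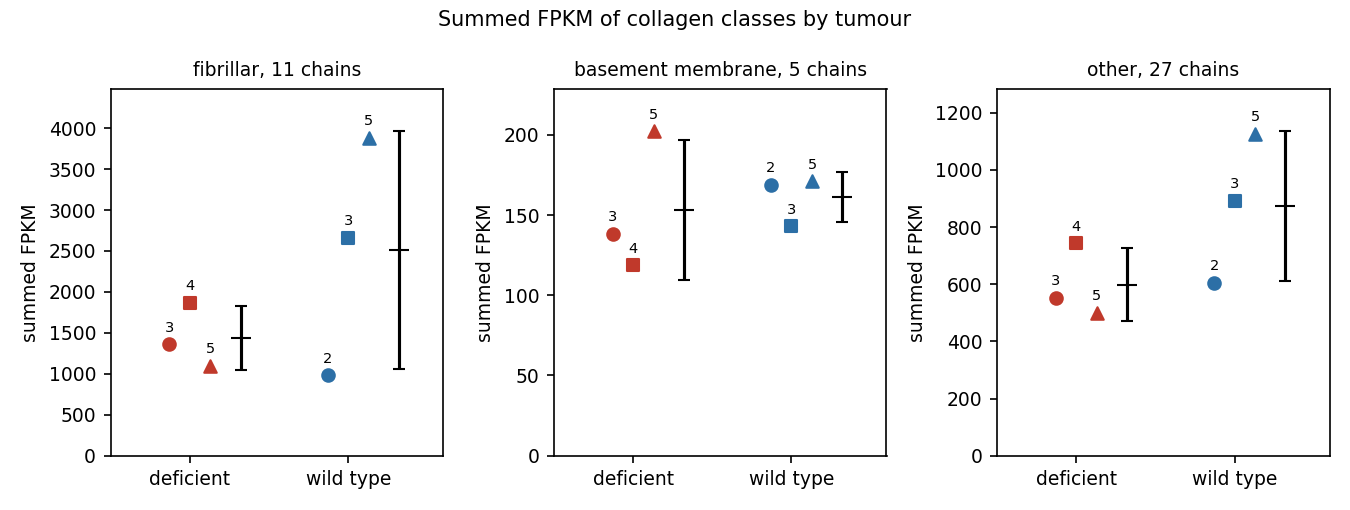
Summed FPKM of fibrillar, basement membrane and other collagen chains in each tumour (deficient at the left, wild type at the right, bars are the mean ± SD of 3 tumours). Wild-type tumours span 983.7 to 3882 FPKM in the fibrillar sum and 143.0 to 171.1 FPKM in the basement membrane sum.

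Among the 14 other chains tested, 0 passed the test in either direction (2 higher and 3 lower at an unadjusted p under 0.05), and the fold change was below 0 for 10 and above 0 for 4. The 3 main chains of type VI, which form beaded filaments close to cells, had fold changes below 0. Col6a1 was at 212.9, 306.9 and 190.8 FPKM in deficient 3, 4 and 5, against 254.9, 372.8 and 474.3 FPKM in wild type 2, 3 and 5. Deficient 4 exceeded wild type 2, and the other deficient tumours were below all wild-type tumours. The log2 fold change was -0.62 for Col6a1 (SE 0.25, limma adjusted p = 0.308), -0.74 for Col6a2 (SE 0.32, limma adjusted p = 0.326) and -0.53 for Col6a3 (SE 0.44, limma adjusted p = 0.624). The ratio of Col6a1 to Col6a2, which are neighbours on chromosome 10, was 2.51, 2.27 and 2.81 in deficient 3, 4 and 5, against 2.49, 2.23 and 2.20 in wild type 2, 3 and 5, with overlapping groups (exact permutation p = 0.2, two-sided).

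Type VIII collagen, a short-chain network of vessel walls and of the membrane under corneal endothelium, has 2 chains, both with overlapping groups. Col8a1 ranged from 23.9 to 54.3 FPKM in deficient tumours and from 42.5 to 84.8 FPKM in wild-type tumours (log2 fold change -0.75, limma adjusted p = 0.332). Col8a2 ranged from 3.17 to 6.77 FPKM in deficient tumours and from 2.33 to 7.20 FPKM in wild-type tumours (log2 fold change 0.23, limma adjusted p = 0.798). The ratio of Col8a1 to Col8a2 was 7.27, 8.02 and 7.54 in deficient 3, 4 and 5, against 18.2, 19.2 and 11.8 in wild type 2, 3 and 5. The ratio was lower in every deficient tumour than in any wild-type tumour (log2 difference -1.08, exact permutation p = 0.1, two-sided, 0.4 after adjustment over the 8 ratios).

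Types XV and XVIII are related proteoglycans beside basement membranes, and their fold changes had opposite signs. Col15a1 was at 8.19, 5.71 and 13.1 FPKM in deficient 3, 4 and 5, against 2.71, 3.43 and 5.31 FPKM in wild type 2, 3 and 5. The groups did not overlap, with deficient 4 just above wild type 5. The means were 8.99 ± 3.74 FPKM in deficient tumours and 3.82 ± 1.35 FPKM in wild-type tumours (SD, n = 3 each), and the difference did not pass the test (log2 fold change 1.02, SE 0.29, limma adjusted p = 0.165). It was the 1 tested chain whose groups did not overlap in the higher direction, where 11.8% of all genes did not. Col18a1, the source of the fragment endostatin, was at 82.6, 77.3 and 115.0 FPKM in deficient 3, 4 and 5, against 125.2, 110.0 and 117.4 FPKM in wild type 2, 3 and 5. Deficient 5 lay among the wild-type tumours and the other two below them (log2 fold change -0.38, SE 0.15, limma adjusted p = 0.303).

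Col28a1, which encodes a collagen with von Willebrand factor A domains known mainly from peripheral nerve, was at 17.1, 10.5 and 15.3 FPKM in deficient 3, 4 and 5, against 6.69, 7.96 and 11.5 FPKM in wild type 2, 3 and 5. Deficient 4 was below wild type 5 (log2 fold change 0.66, SE 0.22, limma adjusted p = 0.223). Schwann cell markers, the glia of such nerves, summed over 5 genes to between 2.20 and 2.89 FPKM in deficient tumours and between 2.93 and 3.38 FPKM in wild-type tumours, the opposite order. Adipocyte markers had the order of Col15a1 in the deficient tumours but not in the wild-type tumours. Summed over 6 genes they were at 95.1, 46.1 and 224.7 FPKM in deficient 3, 4 and 5, against 15.4, 0.832 and 27.2 FPKM in wild type 2, 3 and 5. Among deficient tumours Col28a1 was highest in deficient 3 and the adipocyte sum in deficient 5. All 6 adipocyte genes had a fold change above 0 (median log2 fold change 2.02) with 0 called. At an unadjusted p under 0.05, 5 of the 6 were higher, against 9.86% of all genes tested. Groups did not overlap, in the higher direction, for 3 of the 6 and for 11.8% of all genes. The part of adipocytes in the Col15a1 and Col28a1 values was not tested.

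**Figure D5:**
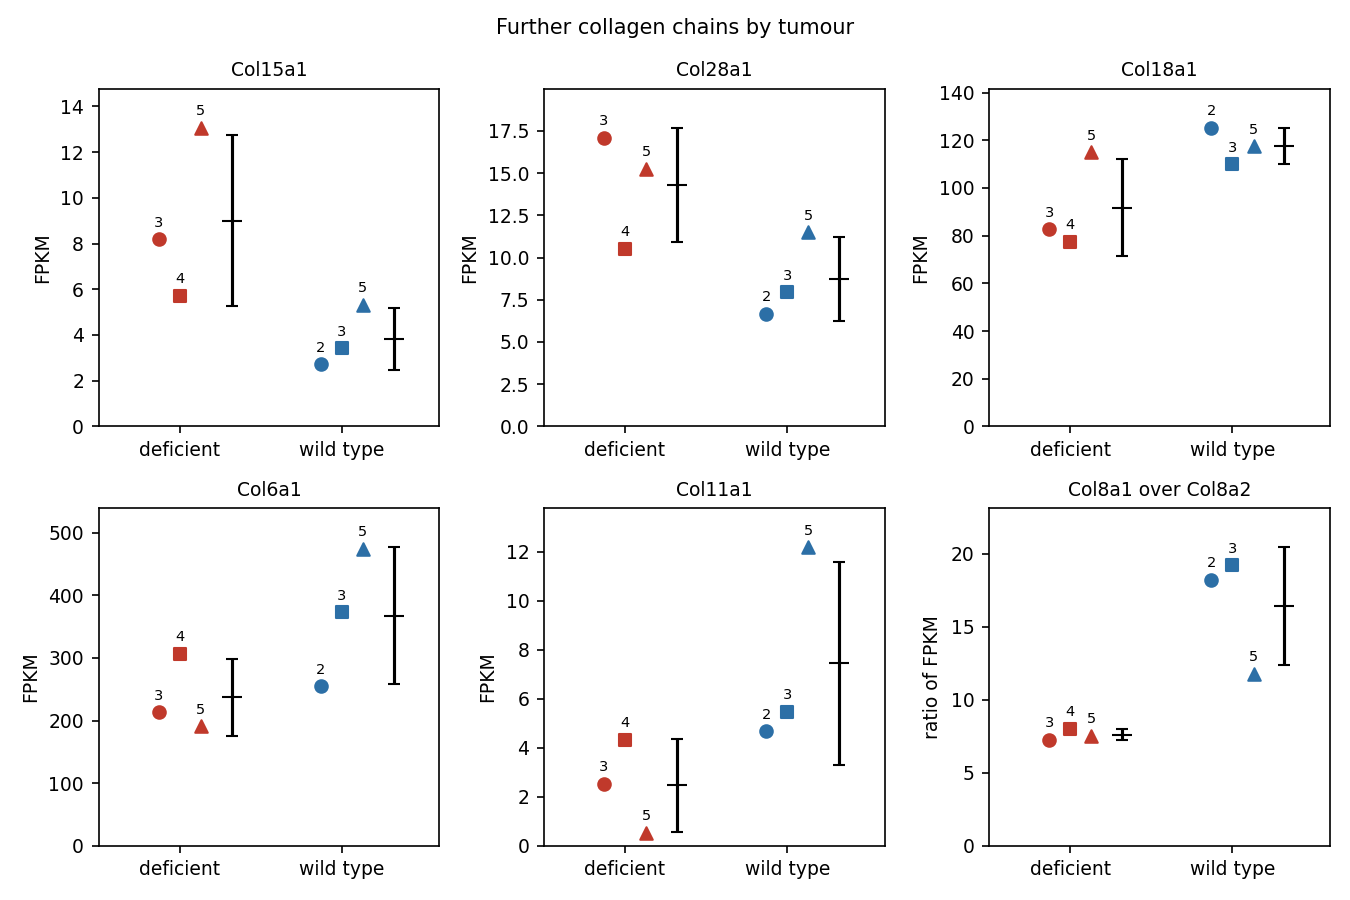
FPKM of Col15a1, Col28a1, Col18a1, Col6a1 and Col11a1 and the ratio of Col8a1 to Col8a2 in each tumour (deficient at the left, wild type at the right, bars are the mean ± SD of 3 tumours). Groups are separate for Col15a1, Col11a1 and the ratio and overlap for the other chains.

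Of the chains that lie along fibril surfaces, Col12a1 ranged from 32.9 to 83.2 FPKM in deficient tumours and from 30.1 to 111.3 FPKM in wild-type tumours (log2 fold change -0.31, limma adjusted p = 0.818). Col14a1 ranged from 5.27 to 11.1 FPKM in deficient tumours and from 5.03 to 7.18 FPKM in wild-type tumours (log2 fold change 0.35, limma adjusted p = 0.533). These related chains thus had fold changes of opposite sign with overlapping groups. The 4 remaining tested chains were Col7a1, which forms the anchoring fibrils of skin, Col16a1 and Col20a1, which belong to the fibril-associated family, and the transmembrane chain Col23a1. Their log2 fold changes lay between -0.59 (Col16a1) and -0.06 (Col20a1).

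The 17 chains below the filter had means between 0.00466 and 0.457 FPKM, and 6 of them were listed at 0 in some tumour. Besides Col2a1, Col11a2, Col4a4 and Col4a6 they were Col6a4, Col6a5, Col6a6, Col9a1, Col9a2, Col9a3, Col10a1, Col13a1, Col17a1, Col19a1, Col22a1, Col25a1 and Col26a1. The highest single value was 0.594 FPKM, of the transmembrane chain Col13a1 in deficient 4. Groups did not overlap for 2 of the 17, Col4a6 and Col17a1, both higher in deficient tumours and named here after their values were seen. The same held in that direction for 8.5% of all genes below the filter. Col17a1, a transmembrane chain that anchors basal epithelial cells to the basement membrane, was at 0.294, 0.220 and 0.225 FPKM in deficient 3, 4 and 5, against 0.0777, 0.0881 and 0.121 FPKM in wild type 2, 3 and 5. That is 61, 50 and 47 fragments in the deficient tumours and 17, 19 and 26 in the wild-type tumours, and with no filter the difference did not pass the test (limma adjusted p = 0.127). Some markers of keratinocytes and other epithelial cells were likewise higher in every deficient tumour, and others overlapped between groups. Keratinocyte markers summed over the 5 genes listed to between 1.64 and 3.02 FPKM in deficient tumours and between 0.969 and 2.13 FPKM in wild-type tumours, most of it from Krt10 and Krt14, whose groups overlapped. The basal keratin Krt5 was at 0.109, 0.497 and 0.602 FPKM in deficient 3, 4 and 5, against 0, 0.0233 and 0.0466 FPKM in wild type 2, 3 and 5. Every deficient tumour was above every wild-type tumour for Krt5, and likewise for Dsp, a desmosome protein, at 0.0607 to 0.224 FPKM in deficient tumours and 0 to 0.00344 FPKM in wild-type tumours. Krt1, of the upper skin layers, was listed at 0 in deficient 4 and in all 3 wild-type tumours. The epithelial adhesion gene Epcam was at 1.19, 3.21 and 5.47 FPKM in deficient 3, 4 and 5, against 0.0983, 0.312 and 0.324 FPKM in wild type 2, 3 and 5 (log2 fold change 1.66, limma adjusted p = 0.0808). Among the deficient tumours, Col17a1 was highest in deficient 3, where Krt5, Dsp and Epcam were lowest. The part of such cells in the Col17a1 values was not tested.

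Genes that build, bind or break down collagen showed 0 calls in either direction. Over all genes tested, 0.979% were called higher and 0.228% lower, so few calls would be found in lists of this size. Of 37 enzymes and helpers of collagen synthesis and assembly, 34 were tested, with a median log2 fold change of -0.08. At an unadjusted p under 0.05, 0 were higher and 3 lower, against 9.86% of all genes higher and 5.25% lower. Groups did not overlap, in the lower direction, for 4 of the 34 and for 8.31% of all genes. Plod2, which hydroxylates lysines of collagen ends for stable cross-links, was at 9.34, 11.3 and 10.2 FPKM in deficient 3, 4 and 5, against 15.6, 13.6 and 13.8 FPKM in wild type 2, 3 and 5. The groups did not overlap, and the difference did not pass the test (log2 fold change -0.44, limma adjusted p = 0.103). The prolyl hydroxylases P4ha1 and P3h2 had log2 fold changes of -0.38 and -0.50 (limma adjusted p = 0.226 and 0.272).

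Of 10 collagen receptors, 9 were tested, with 1 higher and 1 lower at an unadjusted p under 0.05. At that threshold 9.86% of all genes tested were higher and 5.25% lower. Groups did not overlap, in the higher direction, for 2 of the 9 and for 11.8% of all genes. Lair1, an inhibitory collagen receptor of leukocytes, was at 14.4, 7.25 and 10.1 FPKM in deficient 3, 4 and 5, against 6.99, 4.65 and 4.96 FPKM in wild type 2, 3 and 5. Every deficient tumour was above every wild-type tumour (log2 fold change 0.80, SE 0.23, limma adjusted p = 0.176). The collagen-binding integrin Itga10 had a log2 fold change of -1.01 (limma adjusted p = 0.204). Of 11 genes of collagen breakdown, 9 were tested and 8 had a fold change below 0 (median log2 fold change -0.50). At an unadjusted p under 0.05, 0 were higher and 1, Mmp16, was lower (log2 fold change -0.58, limma adjusted p = 0.327). The gelatinase Mmp9 had a log2 fold change of -1.57 (limma adjusted p = 0.366) and the lysosomal collagenase Ctsk of -1.22 (limma adjusted p = 0.385). Groups overlapped for Mmp9 and Ctsk, with deficient 4 above wild type 2 and wild type 3 in each.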

How the data were processed

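Total RNA of 6 tumours was sequenced as paired reads of 150 bp. HISAT2, HTSeq and R 3.2.0 are named in the submitters' processing notes, with no roles. The genome build is not given in the sources used here. The deposited table holds 1 value per gene and sample, and its unit was taken from the values: they behave as FPKM computed by the authors from whole fragments. For 25 low chains the values were whole multiples of 1 step, within 0.02 of a fragment, which gave the fragments printed. Genes with a mean of at least 0.5 FPKM over 6 libraries (12257 genes) were fitted on log2(FPKM + 1) with limma 3.58.1 (R 4.3.3, empirical Bayes with a variance trend), and p-values were adjusted by Benjamini-Hochberg over these genes with a threshold of 0.05. The fit was tested on simulated data. A fold change on this scale understates the change of low genes. Sums and ratios were compared by exact permutation over tumours, which cannot go below p = 0.1. The members, lists and tests were chosen with earlier results of these data known. Chains named were those called, the 12 most abundant, the tested type IV chains, and per class the 3 with the highest and the 3 with the lowest fold change. For each list up to 4 genes with the smallest p were eligible. Others were named after their values were seen. Promoter windows are from RefSeq (GRCm38.p6), matched by gene number. Alternatives covered the pseudocount, filter, scaling, variance trend, left-out libraries and a replicate block.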

Additional observations from a re-analysis of the deposited data

How the results depend on the processing

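With a pseudocount of 0.1, no filter, a filter of 1 FPKM in 3 libraries, median-ratio scaling, quantile normalization or no variance trend, Col4a5 remained the 1 chain called (limma adjusted p between 0.00938 and 0.0489) and no tested chain changed sign. Over the fits that left out 1 library, the chains called lower ranged from 0 to 1. There, the log2 fold change ranged from -0.87 to 0.061 for Col12a1, from -0.14 to 0.013 for Col20a1, from -0.33 to 0.05 for Col4a1, from -0.27 to 0.12 for Col4a2, from -0.92 to 0.032 for Col5a2 and from -0.058 to 0.59 for Col8a2; the sign turned for Col12a1 without deficient 5 (0.023) or wild type 5 (0.061), for Col20a1 (0.013) and Col5a2 (0.032) without wild type 5, and for Col8a2 without wild type 2 (-0.058). Numbers 3 and 5 occur in both groups, and deviations of same-numbered tumours correlated at -0.0897 and -0.00847. The labels do not say what a number marks, and 2 such correlations do not settle whether same-numbered tumours share anything. A fit of those 4 libraries with a replicate block called 2 chains higher and 15 lower, and the same 4 libraries without the block, added after seeing the data, called 0 higher and 11 lower. In both, the log2 fold change was 0.10 for Col4a1, 0.14 for Col4a2 and -0.26 for Col8a2. These fits leave out deficient 4 and wild type 2, and the cause was not tested. Of the sums and ratios, which had no call, the sign turned for the basement membrane sum without deficient 4 (0.060), for Col5a1 over Col5a2 without wild type 5 (-0.077), for Col6a3 over Col6a2 without wild type 2 (-0.016) and for Col3a1 over Col1a1 without deficient 5 (-0.035). Over all genes, 120 were called higher and 28 lower, against 10 and 8 with no filter, 74 and 25 with quantile normalization, and 7 to 270 and 3 to 66 over the fits without 1 library. With the block there were 637 and 353, and 337 and 196 for the same libraries without it. Chains below the filter rest on few fragments.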
